A study of Homo sapiens with 12 samples.

Results

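Genes of purine and pyrimidine nucleotide synthesis were read on 12 one-colour Illumina bead arrays of total RNA from MDA-MB-231 cells, which derive from a human breast cancer and carry mutant p53. The set was chosen by pathway membership, with earlier results of these data known. It holds 35 genes in 6 enzyme classes: 10 of de novo purine synthesis, 2 PRPP synthetases, 5 of pyrimidine synthesis, 7 of deoxynucleotide (dNTP) synthesis and pool control, 7 of salvage and 4 nucleotide kinases. Probes were named for 34 of the 35 genes (61 of 47322 probes), and ADSS2 was not named by the platform annotation. SAMHD1, a dNTP hydrolase, had a probe that was detected on 0 of 12 arrays. The other 33 genes were tested among 12507 genes in all, each through its brightest kept probe. The 4 groups of 3 arrays were p53 siRNA cells with TNF, p53 siRNA cells left untreated, control siRNA cells with TNF and control siRNA cells left untreated, and the labels call the arrays biological replicates. All groups came from this one line, grown in 10% serum and moved at 48 h after transfection to 0.1% serum, with TNF at 10 ng/ml for 20 h in the TNF groups. No group was left without an siRNA, and an effect of the p53 siRNA that did not pass through p53 was not separated from one that did.

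Cells make purine rings stepwise on phosphoribosyl pyrophosphate (PRPP) and make the pyrimidine ring first and attach it to PRPP afterwards. Ribonucleotide reductase and thymidylate synthase turn these products into the dNTPs used to copy DNA. Salvage enzymes rebuild nucleotides from free bases and nucleosides, and HPRT1, which recovers hypoxanthine and guanine, also serves widely as a reference gene in expression assays. Proliferating tumour cells lean on both routes, and several of these enzymes are drug targets.

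Values are normalised log2 intensities, which are compared within a gene and not between genes. A change was called where limma's moderated test gave an adjusted p below 0.05 over all genes, with errors given as standard errors of the log2 change unless marked SD. Median array signals lay between 226 and 266, and 19810 to 21157 probes were detected per array. Arrays of the p53 siRNA TNF group and both control siRNA groups correlated with others of their group at 0.992 or more. In the p53 siRNA untreated group this was 0.974 at the lowest, and for 551 genes replicate 3 was 2-fold or more away from the average of replicates 1 and 2. VIM, CD44, EGFR, AXL and CAV1, which mark this line, were detected on 12 of 12 arrays, and ESR1, PGR and CDH1 on 0. Of the genes taken to be low in this line, ERBB2 and EPCAM were detected on 12 arrays and GATA3 on 10. Of the markers of leukocytes, fibroblasts and endothelium, CD14 and PECAM1 were detected on 12 arrays, COL1A1 and LUM on 11, DCN on 6, ITGAM on 4 and COL1A2 on 1, while PTPRC, CD3E, CDH5 and VWF were detected on 0. Their part in the results was not tested. In bulk RNA, fewer cells that express a gene and less of its RNA per cell cannot be told apart. Only 3 arrays per group limit the precision of every value.

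Promoter windows of 300 bases (250 before the annotated start and 50 after it; RefSeq, GRCh38.p14) were available for 33 of the 35 genes. The first below is that of the gene with the lowest change in the set, the next pair belong to a dNTP gene and a salvage gene with close changes, and the last lies between a pair of purine genes that face away from each other. Capitals mark GGGCGG (the GC box) in HPRT1, CCAAT or its complement ATTGG in RRM2 and TK1, and CACGTG (an E-box) in PAICS, each searched on both strands.
HPRT1 promoter, chrX:134459915-134460214, plus strand: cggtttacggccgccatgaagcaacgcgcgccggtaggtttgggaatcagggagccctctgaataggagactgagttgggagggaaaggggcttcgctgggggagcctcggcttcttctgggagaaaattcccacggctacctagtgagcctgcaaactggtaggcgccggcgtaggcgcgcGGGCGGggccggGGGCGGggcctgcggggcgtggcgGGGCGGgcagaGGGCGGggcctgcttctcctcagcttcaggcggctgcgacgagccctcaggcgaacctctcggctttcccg
RRM2 promoter, chr2:10122489-10122788, plus strand: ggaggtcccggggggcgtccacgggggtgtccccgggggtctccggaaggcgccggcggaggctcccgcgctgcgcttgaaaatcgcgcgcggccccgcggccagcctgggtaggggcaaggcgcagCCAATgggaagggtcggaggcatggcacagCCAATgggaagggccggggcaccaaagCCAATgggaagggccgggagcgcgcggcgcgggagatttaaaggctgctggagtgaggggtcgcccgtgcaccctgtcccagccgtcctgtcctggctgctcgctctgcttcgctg
TK1 promoter, chr17:78187003-78187302, minus strand: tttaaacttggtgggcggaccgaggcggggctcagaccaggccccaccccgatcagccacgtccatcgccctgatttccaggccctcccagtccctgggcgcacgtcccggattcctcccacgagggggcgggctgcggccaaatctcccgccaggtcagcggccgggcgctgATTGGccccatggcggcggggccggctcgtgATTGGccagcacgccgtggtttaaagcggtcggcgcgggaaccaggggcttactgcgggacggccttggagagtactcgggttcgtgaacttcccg
PAICS promoter, chr4:56435502-56435801, plus strand: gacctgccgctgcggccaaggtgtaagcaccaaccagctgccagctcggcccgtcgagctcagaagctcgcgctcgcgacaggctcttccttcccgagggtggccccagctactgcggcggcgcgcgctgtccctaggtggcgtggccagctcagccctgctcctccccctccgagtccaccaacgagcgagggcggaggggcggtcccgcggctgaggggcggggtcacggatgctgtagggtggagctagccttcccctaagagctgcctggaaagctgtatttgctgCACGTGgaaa
RRM2 and TK1 had 2 windows each and PAICS had 3, and the one with the most copies of the marked motif is shown. The HPRT1 window holds 4 GC boxes, the RRM2 window shown 3 CCAAT boxes and the TK1 window shown 2. Of all 35116 windows of this length, 45.0% hold GGGCGG, 34.6% hold CCAAT and 7.26% hold CACGTG. Of the 50 windows of the set, 36 hold GGGCGG, 16 hold CCAAT and 7 hold CACGTG. The PAICS window shares 236 bases with the PPAT window, chr4:56435566-56435865 on the minus strand. These matches describe letters and were not tied to binding by any data here.

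p53 siRNA lowered most nucleotide synthesis genes, with and without TNF, on the quantile-normalised scale. In TNF-treated cells 21 of 33 members were lower and 2 higher, with a median log2 change of -0.59, where 30.9% of all genes were called (16.5% lower, 14.4% higher). In untreated cells 22 were lower and 1 higher, with a median of -0.74, where 35.6% of all genes were called (17.9% lower, 17.7% higher). The median over all genes was 0.01 in both. DHODH and UMPS passed the filter only through control siRNA arrays, so they had to be lower: UMPS is 1 of the 21 lower in TNF-treated cells and DHODH 1 of the 22 lower in untreated cells. Among probes detected on all 12 arrays, which keep 30 members and neither of these, 2 were higher and 21 lower in TNF-treated cells and 1 higher and 21 lower in untreated cells. The groups did not overlap for 28 members in TNF-treated cells and 25 in untreated cells, against 53.9% and 43.2% of all genes. The comparisons share no array but do share 1 estimate of the spread from all 12 arrays, so their calls are not independent. In both, 19 members were called lower, which is 90.5% of those lower in TNF-treated cells and 86.4% of those lower in untreated cells. The share of all genes called lower in both is not given, so this overlap cannot be set against it. Median scaling in place of quantile normalisation moved the median of all genes to -0.15 in TNF-treated cells and -0.13 in untreated cells. With it, 624 genes were called higher and 2685 lower in TNF-treated cells, against 1799 and 2064 with quantile normalisation, and 908 higher and 2772 lower in untreated cells, against 2215 and 2243. Members then numbered 1 higher and 24 lower in TNF-treated cells, and 1 higher and 26 lower in untreated cells. Scaling each array on HPRT1 turned the direction: the other 32 members were then called higher in both comparisons, as were 12478 of 12506 genes in TNF-treated cells and 12488 in untreated cells. HPRT1 itself fell and was the lowest member, so this scaling shifts the others up by construction and is no check on direction.

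**Figure D1:**
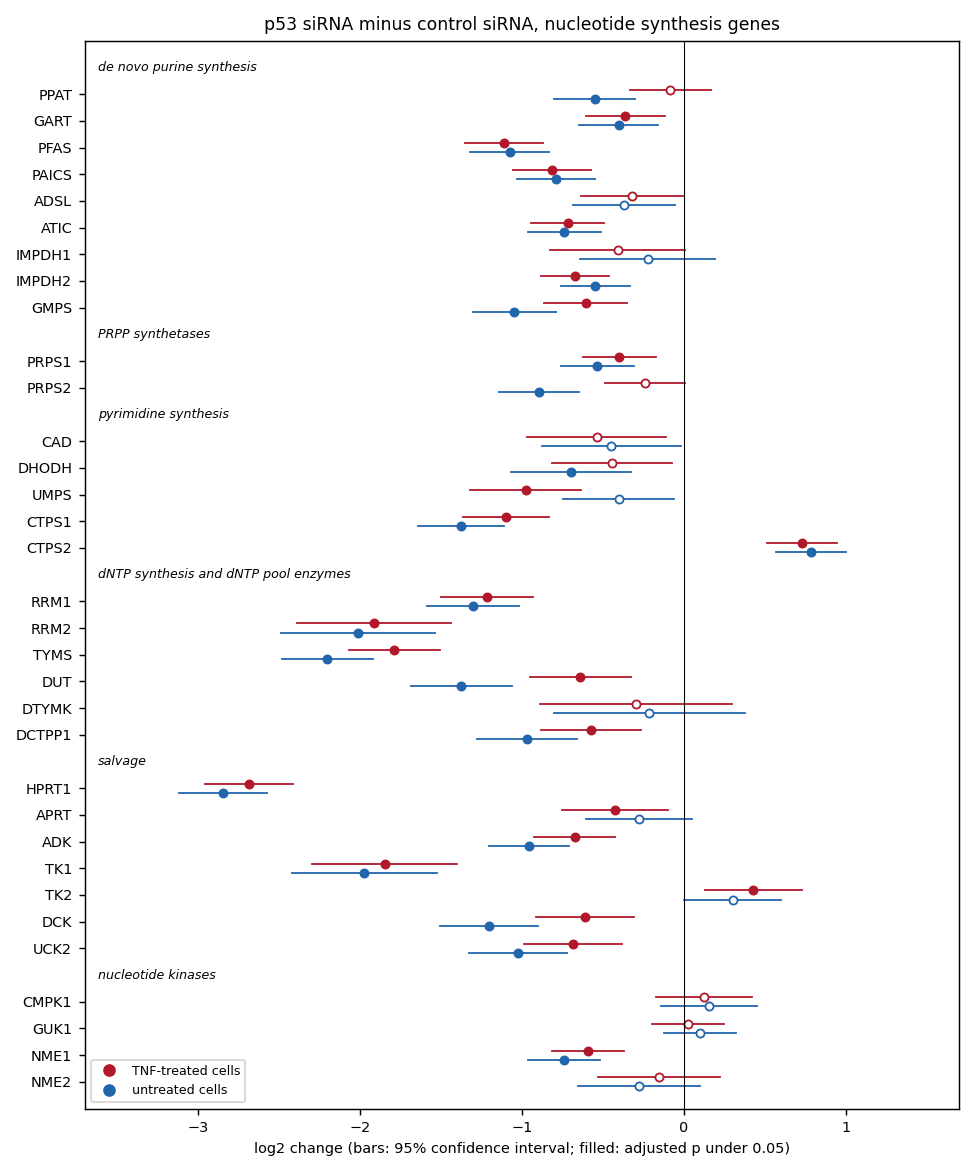
Log2 change of each member tested (rows, by enzyme class) between p53 siRNA and control siRNA arrays, in TNF-treated cells (red, upper point of each row) and untreated cells (blue, lower point). Bars are 95% confidence intervals of limma's fit, and filled points passed an adjusted p of 0.05; the DHODH and UMPS points are fitted values of probes not detected in p53 siRNA cells. HPRT1 lies farthest left at -2.68 and -2.85, and CTPS2 lies right of 0. On arrays scaled on HPRT1 all other members lie right of 0 by construction, as HPRT1 itself fell.

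HPRT1 was the lowest of the set. Its arrays read 9.28, 9.25 and 9.19 in p53 siRNA TNF cells and 9.49, 9.45 and 9.07 in p53 siRNA untreated cells, against 11.80, 12.03 and 11.95 in control siRNA TNF cells and 12.13, 12.20 and 12.22 in control siRNA untreated cells. The 6 p53 siRNA arrays lie below the 6 control siRNA arrays by more than any spread within a group. The change was -2.68 ± 0.12 in TNF-treated cells (6.43-fold lower, adjusted p = 1.81e-07) and -2.85 ± 0.12 in untreated cells (7.20-fold lower, adjusted p = 2.82e-07). HPRT1 ranked 9 from the lowest of 12507 genes in TNF-treated cells and 5 in untreated cells. A second HPRT1 probe, tested with every kept probe on its own, gave -2.67 and -3.02. Without p53 siRNA untreated replicate 3 the change in untreated cells was -2.71.

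Among 9 other genes tested that are in common use as references (12 listed), p53 siRNA changes lay between -0.67 and 0.42 in TNF-treated cells and between -0.64 and 0.35 in untreated cells. GUSB (-0.67 ± 0.12, adjusted p = 0.00155) and GAPDH (-0.32 ± 0.11, adjusted p = 0.0453) were lower in TNF-treated cells, and PPIA was higher (0.42 ± 0.13, adjusted p = 0.0308). In untreated cells GUSB (-0.64), GAPDH (-0.36) and PGK1 (-0.29) were lower. The medians over the 9 were -0.16 and -0.11. This list was chosen after the HPRT1 values were seen.

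**Figure D2:**
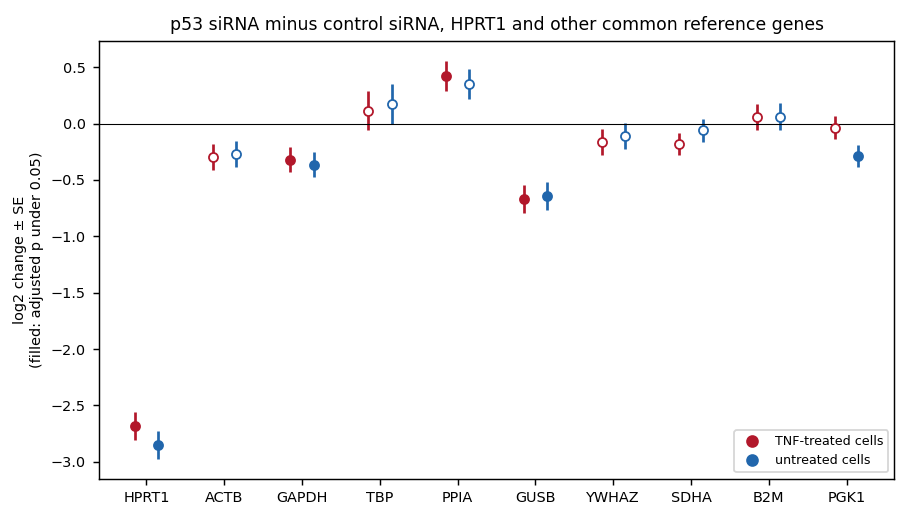
Log2 change ± SE between p53 siRNA and control siRNA arrays for HPRT1 and 9 common reference genes (x axis), in TNF-treated cells (red, left of each pair) and untreated cells (blue, right); filled points passed an adjusted p of 0.05. HPRT1 lies below -2.6 and the other 9 between -0.67 and 0.42.

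Most other salvage enzymes were lower too, and the mitochondrial thymidine kinase was not. Of 7 salvage genes, 6 were called lower and 1 higher in TNF-treated cells (median -0.68), and 5 lower in untreated cells (median -1.03). Over all genes, 16.5% were called lower and 14.4% higher in TNF-treated cells, and 17.9% lower in untreated cells. TK1, the cytosolic thymidine kinase, read 10.08, 9.80 and 9.68 in p53 siRNA TNF cells and 10.96, 10.37 and 9.92 in p53 siRNA untreated cells, against 11.67, 11.72 and 11.71 in control siRNA TNF cells and 12.36, 12.42 and 12.41 in control siRNA untreated cells. The p53 siRNA untreated arrays were the most scattered of these (SD 0.52), yet all 6 p53 siRNA arrays lay below all 6 control siRNA arrays. The changes were -1.85 ± 0.21 (3.599-fold lower, adjusted p = 4.9e-05) in TNF-treated cells and -1.97 ± 0.21 (3.93-fold lower, adjusted p = 2.57e-05) in untreated cells. TK2, the mitochondrial enzyme for the same substrate, read 9.72, 9.63 and 9.36 in p53 siRNA TNF cells and 9.79, 9.47 and 9.34 in p53 siRNA untreated cells, against 9.11, 9.06 and 9.27 in control siRNA TNF cells and 9.27, 9.18 and 9.24 in control siRNA untreated cells. It was higher in TNF-treated cells (0.43 ± 0.14, adjusted p = 0.0338), and its change in untreated cells was 0.30 ± 0.14 (adjusted p = 0.111). The TK2 call was lost without control siRNA TNF replicate 1 or 2 or p53 siRNA TNF replicate 1 or 2 (adjusted p = 0.0893 to 0.129) and under median scaling (adjusted p = 0.291).

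DCK, which phosphorylates deoxycytidine, read 9.30, 9.20 and 9.64 in p53 siRNA TNF cells and 9.58, 9.15 and 9.42 in p53 siRNA untreated cells, against 9.96, 10.03 and 9.99 in control siRNA TNF cells and 10.57, 10.56 and 10.64 in control siRNA untreated cells. It was lower by -0.61 ± 0.14 in TNF-treated cells (adjusted p = 0.00558) and -1.21 ± 0.14 in untreated cells (adjusted p = 4.76e-05), with no overlap of groups in either. ADK, adenosine kinase, read 11.88, 11.95 and 11.91 in p53 siRNA TNF cells and 11.91, 11.78 and 11.51 in p53 siRNA untreated cells, against 12.61, 12.58 and 12.57 in control siRNA TNF cells and 12.60, 12.72 and 12.75 in control siRNA untreated cells. Its changes were -0.68 ± 0.11 and -0.96 ± 0.11, and a further probe gave -0.53 and -0.59, while the remaining kept ADK probe gave -0.04 and -0.22 and was not called. UCK2, a uridine and cytidine kinase, read 9.77, 9.74 and 9.80 in p53 siRNA TNF cells and 9.72, 9.69 and 9.35 in p53 siRNA untreated cells, against 10.59, 10.44 and 10.34 in control siRNA TNF cells and 10.41, 10.61 and 10.84 in control siRNA untreated cells. Its p53 siRNA arrays were all lower than its control siRNA arrays, by -0.68 ± 0.14 in TNF-treated cells (adjusted p = 0.00295) and -1.03 ± 0.14 in untreated cells (adjusted p = 0.00016). APRT, which recovers adenine, was lower in TNF-treated cells (-0.42 ± 0.15, adjusted p = 0.0496) and not called in untreated cells (-0.28 ± 0.15, adjusted p = 0.174). The APRT call was lost without any 1 array other than p53 siRNA untreated replicates 1 and 3 (adjusted p = 0.0505 to 0.18).

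The dNTP enzymes had the lowest median of the classes in both comparisons, -0.93 in TNF-treated cells and -1.34 in untreated cells. In each, 5 of 6 tested were called lower, where 16.5% and 17.9% of all genes were. TYMS, thymidylate synthase, read 10.68, 10.76 and 10.86 in p53 siRNA TNF cells and 11.61, 11.16 and 11.26 in p53 siRNA untreated cells, against 12.61, 12.48 and 12.58 in control siRNA TNF cells and 13.45, 13.50 and 13.68 in control siRNA untreated cells. Each of the 4 TYMS groups occupied a range of its own, with p53 siRNA TNF cells lowest and control siRNA untreated cells highest. TYMS was 3.46-fold lower in TNF-treated cells (-1.79 ± 0.13, adjusted p = 2.99e-06) and 4.60-fold lower in untreated cells (-2.20 ± 0.13, adjusted p = 6.55e-07). RRM1, the large subunit of ribonucleotide reductase, read 11.82, 11.80 and 11.94 in p53 siRNA TNF cells and 12.55, 12.09 and 12.58 in p53 siRNA untreated cells, against 13.11, 13.10 and 13.01 in control siRNA TNF cells and 13.75, 13.69 and 13.68 in control siRNA untreated cells. The RRM1 groups kept the same order and did not overlap, with changes of -1.22 ± 0.13 (adjusted p = 3.9e-05) and -1.30 ± 0.13 (adjusted p = 1.98e-05).

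RRM2, the small subunit that proliferating cells induce for DNA synthesis, read 7.34, 7.55 and 7.40 in p53 siRNA TNF cells and 8.80, 7.79 and 7.92 in p53 siRNA untreated cells, against 9.39, 9.41 and 9.22 in control siRNA TNF cells and 10.38, 10.00 and 10.18 in control siRNA untreated cells. Replicate 1 of the p53 siRNA untreated cells was the high array of its group, and still below every control siRNA array. RRM2 was 3.77-fold lower in TNF-treated cells (-1.91 ± 0.22, adjusted p = 5.67e-05) and 4.04-fold lower in untreated cells (-2.01 ± 0.22, adjusted p = 3.37e-05). RRM2B, the alternative small subunit used in resting cells and after DNA damage, was outside the set: it was lower in TNF-treated cells (-0.69 ± 0.20, adjusted p = 0.022) and its change in untreated cells was -0.09 ± 0.20 (adjusted p = 0.771). DCTPP1, which hydrolyses dCTP and modified cytidine nucleotides, was lower by -0.57 ± 0.14 in TNF-treated cells (adjusted p = 0.00933) and -0.97 ± 0.14 in untreated cells (adjusted p = 0.000274). DTYMK, thymidylate kinase, was detected on 1, 1, 2 and 2 arrays of the 4 groups and was called in no comparison.

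DUT, which removes dUTP, depended on the probe. The probe that stood for it read 9.16, 9.51 and 9.61 in p53 siRNA TNF cells and 9.38, 9.11 and 9.16 in p53 siRNA untreated cells, against 10.00, 10.02 and 10.19 in control siRNA TNF cells and 10.77, 10.56 and 10.44 in control siRNA untreated cells. All 6 p53 siRNA arrays were below all 6 control siRNA arrays, with changes of -0.64 ± 0.14 in TNF-treated cells (adjusted p = 0.00519) and -1.37 ± 0.14 in untreated cells (adjusted p = 2.57e-05). A second probe gave -0.64 and -1.48. The remaining probe, detected on 12 of 12 arrays, gave 0.43 ± 0.22 (adjusted p = 0.196) and 0.29 ± 0.22 (adjusted p = 0.369) among all kept probes. With the mean of the probes the call in TNF-treated cells was lost (adjusted p = 0.109). The files give no probe sequence, so the transcript that each probe reads was not tested.

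**Figure D3:**
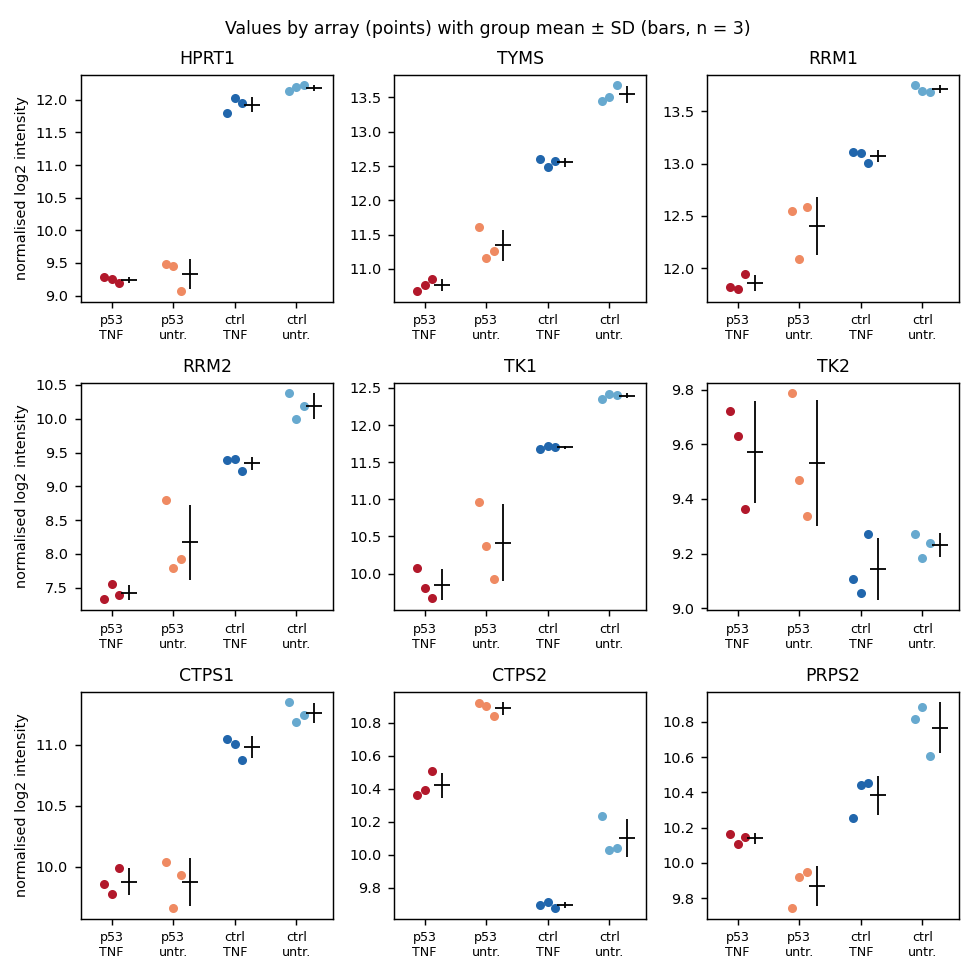
Normalised log2 intensity (y axis, a scale of its own in each panel) of 9 members on each array, by group: p53 siRNA TNF, p53 siRNA untreated (p53 untr.), control siRNA TNF (ctrl TNF) and control siRNA untreated (ctrl untr.). Points are arrays and black bars the group mean ± SD (n = 3). HPRT1 forms a low and a high level by siRNA, TYMS and RRM1 step through 4 separate ranges, and TK2 and CTPS2 lie higher in p53 siRNA cells where TK1 and CTPS1 lie lower.

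Pyrimidine synthesis was divided, with 2 of 5 members lower and 1 higher in each comparison, where 30.9% and 35.6% of all genes were called. Of the 2 lower, 1 was UMPS in TNF-treated cells and DHODH in untreated cells, which had to be lower. The enzymes that make CTP from UTP went opposite ways. CTPS1 read 9.86, 9.78 and 9.99 in p53 siRNA TNF cells and 10.04, 9.66 and 9.93 in p53 siRNA untreated cells, against 11.05, 11.01 and 10.88 in control siRNA TNF cells and 11.35, 11.19 and 11.24 in control siRNA untreated cells. CTPS2 read 10.36, 10.39 and 10.51 in p53 siRNA TNF cells and 10.92, 10.90 and 10.84 in p53 siRNA untreated cells, against 9.69, 9.71 and 9.67 in control siRNA TNF cells and 10.23, 10.03 and 10.04 in control siRNA untreated cells. Neither gene's siRNA groups overlapped within TNF-treated or untreated cells. CTPS1 was lower by -1.10 ± 0.12 (2.14-fold, adjusted p = 4.7e-05) in TNF-treated cells and -1.38 ± 0.12 (2.60-fold, adjusted p = 1.06e-05) in untreated cells. CTPS2 was higher by 0.73 ± 0.10 (1.66-fold, adjusted p = 0.000204) and 0.79 ± 0.10 (1.72-fold, adjusted p = 9.82e-05). The other detected CTPS2 probe gave 0.52 ± 0.18 (adjusted p = 0.0567) and 1.33 ± 0.18 (adjusted p = 0.000228).

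The enzymes upstream of CTP synthesis were dim or uncalled. DHODH, the mitochondrial dehydrogenase of the pathway, was detected on 0 of 6 p53 siRNA arrays and 6 of 6 control siRNA arrays. It was at least 1.11-fold lower in untreated p53 siRNA cells (adjusted p = 0.00716), a bound that sets the bright group's mean against the lowest signal detected on each dim array. In TNF-treated cells it was not called (adjusted p = 0.0657). UMPS, which completes UMP, was detected on 0 of 6 p53 siRNA arrays, 3 of 3 control siRNA TNF arrays and 2 of 3 control siRNA untreated arrays. It was at least 1.39-fold lower in TNF-treated p53 siRNA cells (adjusted p = 0.000628) and not called in untreated cells (adjusted p = 0.0619). DHODH and UMPS both passed the filter only through control siRNA arrays. They had to be lower, so their p-values are no evidence of a decrease. CAD, the multifunctional enzyme that opens the pathway, changed by -0.54 ± 0.20 in TNF-treated cells (adjusted p = 0.0561) and -0.45 ± 0.20 in untreated cells (adjusted p = 0.0967), short of the threshold. With dim probes at their bound, the class median was -0.47 in TNF-treated cells and -0.15 in untreated cells, against fitted medians of -0.54 and -0.45.

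De novo purine synthesis was lower more evenly, with 6 of 9 genes called lower in TNF-treated cells (median -0.61) and 7 of 9 in untreated cells (median -0.55), and none higher. The share of all genes called lower was 16.5% and 17.9%. PFAS, which acts in the middle of the ring assembly, read 9.72, 9.48 and 9.53 in p53 siRNA TNF cells and 10.02, 9.70 and 9.86 in p53 siRNA untreated cells, against 10.67, 10.69 and 10.70 in control siRNA TNF cells and 10.96, 10.89 and 10.96 in control siRNA untreated cells. Its siRNA groups were far apart relative to their spread, with changes of -1.11 ± 0.11 (adjusted p = 2.38e-05) and -1.08 ± 0.11 (adjusted p = 2.46e-05). PAICS, which carries out later steps, read 11.98, 12.05 and 12.17 in p53 siRNA TNF cells and 12.53, 12.29 and 12.58 in p53 siRNA untreated cells, against 12.80, 12.93 and 12.92 in control siRNA TNF cells and 13.29, 13.19 and 13.28 in control siRNA untreated cells. It was lower by -0.81 ± 0.11 (adjusted p = 0.000201) and -0.79 ± 0.11 (adjusted p = 0.0002). PPAT, the committing enzyme whose promoter window overlaps that of PAICS, was lower in untreated cells (-0.55 ± 0.11, adjusted p = 0.00287) and changed by -0.09 ± 0.11 in TNF-treated cells (adjusted p = 0.622). Whether this gene pair differed from each other was not tested.

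GMPS, which makes GMP, read 10.32, 10.46 and 10.39 in p53 siRNA TNF cells and 10.73, 10.40 and 10.42 in p53 siRNA untreated cells, against 10.99, 11.12 and 10.90 in control siRNA TNF cells and 11.47, 11.61 and 11.60 in control siRNA untreated cells. All p53 siRNA arrays were below all control siRNA arrays, with changes of -0.61 ± 0.12 (adjusted p = 0.00219) and -1.05 ± 0.12 (adjusted p = 4.12e-05). ATIC, which closes the purine ring, was lower by -0.72 ± 0.10 and -0.74 ± 0.10. IMPDH2, the inducible form of the enzyme that leads to GMP, was lower by -0.67 ± 0.10 and -0.55 ± 0.10, and IMPDH1 was called in no comparison. GART, which acts at several early steps, was lower by -0.36 ± 0.11 (adjusted p = 0.0273) and -0.40 ± 0.11 (adjusted p = 0.0144). The GART call in TNF-treated cells was lost without control siRNA TNF replicate 1 or 2 or any 1 p53 siRNA TNF array (adjusted p = 0.0708 to 0.0802), and that in untreated cells without control siRNA untreated replicate 3 (adjusted p = 0.0548) and with the compared groups alone (adjusted p = 0.0905). A second GART probe gave -0.64 (adjusted p = 0.025) and -0.71 (adjusted p = 0.0122) among all kept probes. ADSL, which acts both in ring assembly and in AMP synthesis, was called in no comparison.

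PRPS1, which makes PRPP, was lower by -0.40 ± 0.10 in TNF-treated cells (adjusted p = 0.0114, and 0.0504 without control siRNA TNF replicate 1) and -0.53 ± 0.10 in untreated cells (adjusted p = 0.00178). Its paralogue PRPS2 read 10.16, 10.11 and 10.15 in p53 siRNA TNF cells and 9.74, 9.92 and 9.95 in p53 siRNA untreated cells, against 10.25, 10.44 and 10.45 in control siRNA TNF cells and 10.82, 10.88 and 10.60 in control siRNA untreated cells. The siRNA groups lay close together with TNF and far apart without it: -0.24 ± 0.11 (adjusted p = 0.126) and -0.90 ± 0.11 (adjusted p = 9.64e-05). A second PRPS2 probe gave -0.27 (adjusted p = 0.184) and -0.99 (adjusted p = 0.000264) among all kept probes. The nucleotide kinases were called no more often than all genes, of which 30.9% were called in TNF-treated cells and 35.6% in untreated cells. Of the 4 kinases 1 was called, in both comparisons. This was NME1, a nucleoside diphosphate kinase, which read 13.58, 13.51 and 13.54 in p53 siRNA TNF cells and 13.63, 13.50 and 13.62 in p53 siRNA untreated cells, against 14.08, 14.29 and 14.03 in control siRNA TNF cells and 14.28, 14.35 and 14.34 in control siRNA untreated cells. Its changes were -0.59 ± 0.10 (adjusted p = 0.00104) and -0.74 ± 0.10 (adjusted p = 0.000189). The other kept NME1 probes gave -0.27 and -0.28 in TNF-treated cells, neither called, and -0.95 and -0.59 in untreated cells, both called. NME2, its close paralogue and neighbour, CMPK1 and GUK1 were called in no comparison, and whether probes of NME1 and NME2 read each other's transcript was not tested.

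**Figure D4:**
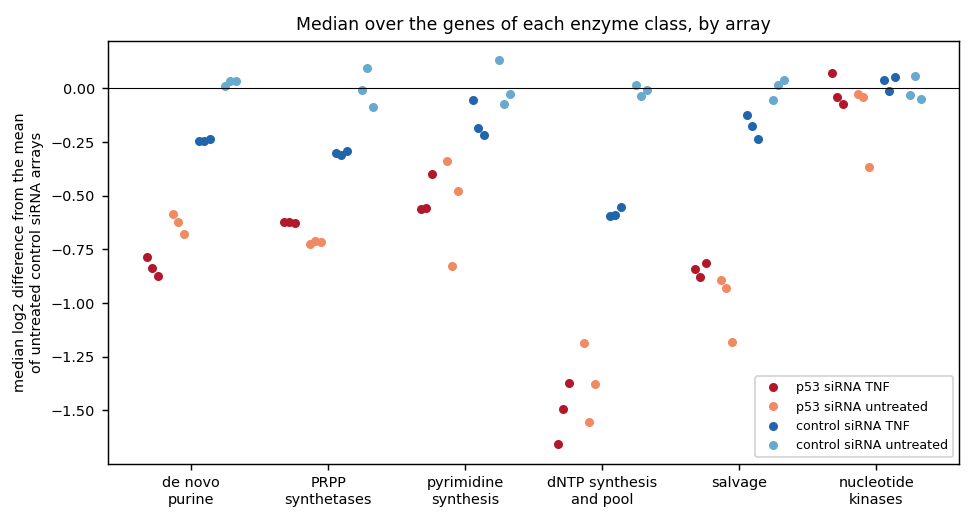
Median log2 difference of the genes in each enzyme class from the mean of the control siRNA untreated arrays (y axis), for each array (points) of the 4 groups (colours, p53 siRNA groups left of control siRNA groups within each class). The p53 siRNA arrays lie below the control siRNA arrays of the same treatment in every class but the nucleotide kinases, where p53 siRNA untreated replicate 3 alone lies apart. The pyrimidine class includes DHODH and UMPS, which were not detected in p53 siRNA cells and had to be lower. With them at their bound its median p53 siRNA change is -0.47 with TNF and -0.15 without it. The direction holds on the quantile-normalised scale. It turns by construction on arrays scaled on HPRT1, which itself fell.

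TNF lowered a smaller share of the set. In p53 siRNA cells 4 of 33 members were lower and none higher, where 7.80% of all genes were called (3.85% lower, 3.95% higher), with a median of -0.04. Groups did not overlap for 8 members, against 23.3% of all genes. In control siRNA cells 7 were lower and none higher, where 9.59% of all genes were called (4.69% lower, 4.89% higher), with a median of -0.22. Groups did not overlap for 20 members there, against 33.7% of all genes. TYMS, RRM1 and CTPS2 were lower in both, which is 75% of the calls in p53 siRNA cells and 42.9% of those in control siRNA cells. Here too the share of all genes called lower in both is not given. TYMS was lower by -0.58 ± 0.13 in p53 siRNA cells (1.49-fold, adjusted p = 0.0168) and -0.99 ± 0.13 in control siRNA cells (1.98-fold, adjusted p = 0.000407). RRM1 was lower by -0.55 ± 0.13 (adjusted p = 0.0235) and -0.64 ± 0.13 (adjusted p = 0.00863), and CTPS2 by -0.47 ± 0.10 (adjusted p = 0.0126) and -0.41 ± 0.10 (adjusted p = 0.0216). The other detected CTPS2 probe gave -0.92 (adjusted p = 0.0105) in p53 siRNA cells and -0.11 (adjusted p = 0.841) in control siRNA cells, and with the mean of the probes the call in control siRNA cells was lost (adjusted p = 0.258). The remaining call in p53 siRNA cells was PAICS (-0.40 ± 0.11, adjusted p = 0.0484), a call lost in 19 of 23 alternatives, among them without any 1 control siRNA array (adjusted p = 0.0642 to 0.0744). The remaining calls in control siRNA cells were RRM2 (-0.84 ± 0.22, adjusted p = 0.0293), DCK (-0.60 ± 0.14, adjusted p = 0.0166), GMPS (-0.56 ± 0.12, adjusted p = 0.00966) and DUT (-0.52 ± 0.14, adjusted p = 0.0395). The DUT call was lost in 12 of 23 alternatives, among them the mean of its probes (adjusted p = 0.0737), and the CTPS2 call in control siRNA cells in 8. The RRM2, DCK and GMPS calls were lost in 7, 6 and 3. In p53 siRNA cells those of RRM1, TYMS and CTPS2 were lost in 8, 5 and 5. HPRT1 was not called, at -0.09 ± 0.12 in p53 siRNA cells (adjusted p = 0.731) and -0.26 ± 0.12 in control siRNA cells (adjusted p = 0.266).

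These counts rested on few arrays. In p53 siRNA cells the count of 4 was 0 without p53 siRNA TNF replicate 1 or 2, and 2 without p53 siRNA TNF replicate 3 or p53 siRNA untreated replicate 1. It was also 0 when the p53 siRNA groups were fitted alone and on arrays scaled on HPRT1, and 1 under median scaling. In control siRNA cells the count of 7 was 2 without control siRNA TNF replicate 3, 3 without control siRNA TNF replicate 1 or control siRNA untreated replicate 1, and 4 without control siRNA TNF replicate 2 or control siRNA untreated replicate 3. It was 11 without p53 siRNA untreated replicate 3, the array that stands apart, and the count in p53 siRNA cells was then 6. On arrays scaled on HPRT1, TYMS was lower and UMPS higher in control siRNA cells, and no other member was called. TYMS was called in control siRNA cells under every alternative run. Without that array the siRNA counts were 26 in TNF-treated cells and 24 in untreated cells.

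**Figure D5:**
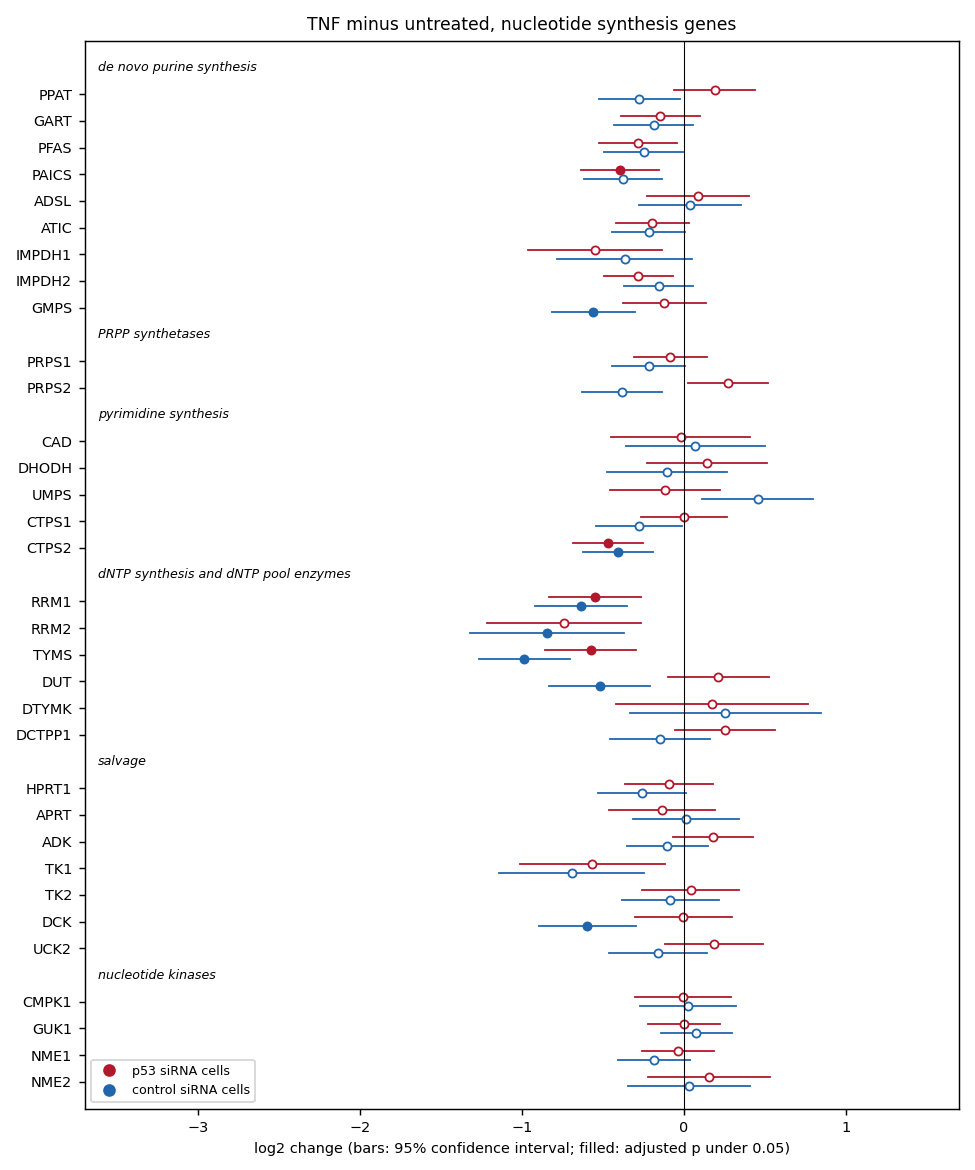
Log2 change of each member tested between TNF and untreated arrays, in p53 siRNA cells (red, upper point of each row) and control siRNA cells (blue, lower point). Bars are 95% confidence intervals of limma's fit and filled points passed an adjusted p of 0.05. All filled points lie left of 0, from -0.40 to -0.99, and PRPS2 has its points on opposite sides of 0.

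The TNF response did not differ detectably between the siRNAs for any member. In the direct test of that difference 0 of 33 members passed (0.216% of all genes did, 0.0800% higher and 0.136% lower), with 7 members at an unadjusted p under 0.05 against 10.3% of all genes, and 0 were called in each alternative run. The median difference was 0.12. DUT had the largest, 0.73 ± 0.20 (adjusted p = 0.204, 95% interval 0.29 to 1.17), followed by PRPS2 at 0.65 ± 0.16 (adjusted p = 0.155) and DCK at 0.59 ± 0.20 (adjusted p = 0.295). The DUT value is that of its brightest kept probe alone, and the siRNA changes of DUT depended on the probe. For HPRT1 the difference was 0.16 ± 0.18, with an interval from -0.22 to 0.55. For TYMS it was 0.41 ± 0.18 (adjusted p = 0.466).

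Genes that feed or drain the same pools were read as fuller lists. Of 11 folate and one-carbon genes tested (18 listed), which supply carbon units to purines and thymidylate, 7 were lower in p53 siRNA cells with TNF (median -0.55), 8 without it (median -0.78), and none were higher, where 16.5% and 17.9% of all genes were called lower. PSAT1, of serine synthesis, was lower by -1.64 ± 0.14 (adjusted p = 9.49e-06) and -1.52 ± 0.14 (adjusted p = 1.26e-05), and MTHFD1, which interconverts folate one-carbon units, by -1.22 ± 0.19 and -1.03 ± 0.19. TNF lowered PSPH (-0.60 ± 0.10) and PSAT1 (-0.57 ± 0.14) in p53 siRNA cells and called none of the list in control siRNA cells, where 3.85% and 4.69% of all genes were called lower. The median TNF change of the list was -0.10 in p53 siRNA cells and -0.28 in control siRNA cells. In the direct test the TNF response differed between the siRNAs for 0 of these 11 genes. Of 19 other synthesis and salvage genes tested (21 listed), p53 siRNA lowered 5 and raised 1 in TNF-treated cells, and lowered 4 and raised 2 in untreated cells. These 6 of 19 are close to the 30.9% and 35.6% of all genes called in either direction. PNP, purine nucleoside phosphorylase, was among those lowered (-0.67 ± 0.13 and -1.33 ± 0.13). TNF raised CDA, cytidine deaminase, by 0.86 ± 0.17 in p53 siRNA cells (adjusted p = 0.00931) and 0.81 ± 0.17 in control siRNA cells (adjusted p = 0.0112). Over that list TNF called 2 higher and none lower in p53 siRNA cells, and 1 higher and 4 lower in control siRNA cells, where 7.80% and 9.59% of all genes were called in either direction. The direct test of the difference passed for 0 of these 19.

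Among 11 breakdown genes tested (20 listed) p53 siRNA lowered 4 and raised 2 in TNF-treated cells, and lowered 1 and raised 2 in untreated cells, where 30.9% and 35.6% of all genes were called; the 3 of 11 without TNF are close to that share. AMPD3, which deaminates AMP, read 9.14, 9.06 and 9.21 in p53 siRNA TNF cells and 7.05, 7.91 and 8.02 in p53 siRNA untreated cells, against 7.60, 7.39 and 7.79 in control siRNA TNF cells and 6.21, 6.05 and 6.02 in control siRNA untreated cells. This probe was detected on 3 of 3 arrays of the first 3 of these groups and on 0 of 3 control siRNA untreated arrays. With p53 siRNA it was higher by 1.54 ± 0.21 in TNF-treated cells (adjusted p = 0.000216) and at least 2.34-fold higher in untreated cells (adjusted p = 0.000163). With TNF it was higher by 1.48 ± 0.21 in p53 siRNA cells (adjusted p = 0.00101) and at least 2.24-fold higher in control siRNA cells (adjusted p = 0.000743), opposite to every member that TNF called. Of the other kept AMPD3 probes, which were dim, 1 was called higher in the same comparisons except p53 siRNA in untreated cells (adjusted p = 0.0912). This dim probe was detected on 3 of 3 p53 siRNA TNF arrays, 1 control siRNA TNF array and 0 untreated arrays. As it passed the filter only through TNF arrays, mostly of p53 siRNA cells, its higher calls are no evidence of an increase. The remaining probe, detected on 3 of 12 arrays, was not called. TYMP, thymidine phosphorylase, was higher with TNF by 0.83 ± 0.13 (adjusted p = 0.00154) and 0.996 ± 0.13 (adjusted p = 0.000322), and these were the only breakdown genes that TNF called in either siRNA. ADA, adenosine deaminase, was detected on 0 of 6 p53 siRNA arrays, 2 of 3 control siRNA TNF arrays and 3 of 3 control siRNA untreated arrays. It was at least 1.28-fold lower in untreated p53 siRNA cells (adjusted p = 7.37e-05) and was called lower in TNF-treated p53 siRNA cells (adjusted p = 0.00132), with no fold to give at that signal. ADA passed the filter only through control siRNA arrays, so it had to be lower. It is the 1 breakdown gene lowered in untreated cells and 1 of the 4 lowered in TNF-treated cells. Of 4 nucleoside transporters tested (6 listed) SLC29A2 was higher in untreated p53 siRNA cells (0.64 ± 0.16, adjusted p = 0.00911), with no other call in the p53 siRNA or TNF comparisons.

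DNA replication genes were read beside the dNTP enzymes. Of 18 tested (20 listed), p53 siRNA lowered 16 in TNF-treated cells (median -0.996) and 17 in untreated cells (median -1.46), where 16.5% and 17.9% of all genes were called lower. CDC6, a loader of the replicative helicase, was detected on 0 of 3 p53 siRNA TNF arrays, and with it at its bound the median in TNF-treated cells was -0.91. MCM6, a subunit of that helicase, was lower by -1.84 ± 0.17 and -2.36 ± 0.17. TNF lowered 2 in p53 siRNA cells (median -0.27) and 16 in control siRNA cells (median -0.84), against 3.85% and 4.69% of all genes; in control siRNA cells GINS2, a replication fork subunit, was lower by -1.23 ± 0.18. The difference in TNF response passed for 0 of the 18, and was positive in all of them. The part of the share of replicating cells in the changes of the synthesis set was not tested.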

How the data were processed

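Total RNA of 12 samples was read on Illumina bead arrays. The authors deposited 1 intensity and 1 detection p-value per probe and array, per the file headers; the submitters' processing notes list GenomeStudio without a version. The authors' deposited table of normalised intensity values (column median 241.6, method not stated) served as an alternative.

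Intensities went through neqc of limma 3.58.1 in R 4.3.3 (background from detection p-values, offset 16, quantile normalisation, log2). Probes with detection p under 0.05 on at least 3 of 12 arrays were kept (23079), of which 16849 had 1 gene in the platform annotation, which can be old. The kept probe with the highest mean stood for its gene. A model with 1 mean per group was fitted to all 12 arrays by lmFit and eBayes (8 residual and 4.03 prior degrees of freedom), with 2-sided tests and Benjamini-Hochberg adjustment over 12507 genes in each of 5 comparisons. Code was tested on simulated data.

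Members and lists were chosen with earlier results of these data known. All members are accounted for; per-array values are given for the 16 members with the smallest adjusted p and for HPRT1, with TK2 added after its values were seen, and from other lists at most 4 called genes per comparison are named. AMPD3 values by array and the reference genes were also chosen after values were seen. The transcript targeted by the p53 siRNA is not reported here, so groups follow their labels and depletion was not checked.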

Additional observations from a re-analysis of the deposited data

Results flagged for a closer look

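PRPS2 drew attention because TNF moved it up on every p53 siRNA array and down on every control siRNA array: the TNF arrays lay above all untreated arrays of the p53 siRNA cells (0.27 ± 0.11) and below all untreated arrays of the control siRNA cells (-0.38 ± 0.11). The difference in TNF response was 0.65 ± 0.16, with a 95% interval of 0.31 to 1.002, and did not pass adjustment over all genes in limma's test (adjusted p = 0.155). Neither TNF effect passed on its own (adjusted p = 0.192 in p53 siRNA cells and 0.053 in control siRNA cells). This is the brighter PRPS2 probe. On the second kept probe the groups overlapped in p53 siRNA cells: TNF arrays read 9.92, 9.98 and 10.12, against 9.59, 10.09 and 9.82 on untreated arrays. That probe changed with TNF by 0.18 (adjusted p = 0.553) in p53 siRNA cells and -0.54 (adjusted p = 0.0347) in control siRNA cells, among all kept probes.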

How the results depend on the processing

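Scaling arrays on HPRT1 reversed all 41 called decreases of other members under p53 siRNA; HPRT1 itself fell, so every other gene is shifted up by construction. In TNF-treated cells the HPRT1-scaled log2 changes were GART 2.32, PFAS 1.57, PAICS 1.87, ATIC 1.97, IMPDH2 2.01, GMPS 2.08, PRPS1 2.28, UMPS 1.71, CTPS1 1.58, RRM1 1.47, RRM2 0.77, TYMS 0.90, DUT 2.04, DCTPP1 2.11, APRT 2.26, ADK 2.01, TK1 0.84, DCK 2.07, UCK2 2.002, NME1 2.09. In untreated cells they were PPAT 2.30, GART 2.45, PFAS 1.77, PAICS 2.06, ATIC 2.11, IMPDH2 2.30, GMPS 1.80, PRPS1 2.31, PRPS2 1.95, DHODH 2.15, CTPS1 1.47, RRM1 1.54, RRM2 0.83, TYMS 0.65, DUT 1.47, DCTPP1 1.88, ADK 1.89, TK1 0.87, DCK 1.64, UCK2 1.82, NME1 2.11. The count of members called for TNF in p53 siRNA cells (4 as reported) was 1 under median scaling, 0 on HPRT1-scaled arrays, 0 with the compared groups alone and 0 to 6 without 1 array. That for TNF in control siRNA cells (7) was 2 under median scaling, 2 on HPRT1-scaled arrays, 12 with array weights and 2 to 11 without 1 array. The siRNA counts (23 and 23) stayed between 19 and 28 in TNF-treated cells and 22 and 27 in untreated cells under the alternatives other than HPRT1 scaling (32 in both), and the difference in TNF response stayed at 0. Apart from HPRT1 scaling, no called member changed direction; 102 values of called members across comparisons and settings fell short of the threshold. Same-numbered arrays did not deviate together (correlations from -0.13 to 0.19, 1 of 18 above 0.1; 6 of 12 arrays correlated best with their own number), and a replicate block gave 3 and 7 members for TNF in p53 siRNA and control siRNA cells, 23 and 23 for the siRNA effects and 0 for the difference. Slide as a block was not run, as the files used here give no slide, so slide and group cannot be told apart. Signal over background limits DHODH, UMPS and DTYMK, and AMPD3, ADA and CDC6 outside the set.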
